A study of Mus with 14 samples.

Results

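Oxidative phosphorylation is carried out by 5 protein complexes of the inner mitochondrial membrane, and most of their subunits are encoded in the nucleus. These nuclear genes were followed in Kit-positive bone marrow cells of transplanted mice, by respiratory complex, in stem-like cells against committed progenitors and between genotypes. The members were the 94 genes, of 32285 listed in the deposited matrices, whose symbols start with the names given to subunits and assembly factors of complexes I to V (Ndufa, Ndufb, Ndufc, Ndufs and Ndufv, Sdha to Sdhd, Uqcr, Cox4 to Cox8, and Atp5). By role, 37 belonged to complex I (7 core and 30 accessory subunits), 8 to the assembly of complex I, 4 to complex II, 8 to complex III, 20 to complex IV and 17 to complex V. Complex V held 5 genes of the F1 part (head and central stalk), 3 of the c ring, 4 of the peripheral stalk and 5 small membrane subunits. Ndufa4 and its paralog Ndufa4l2 were counted with complex IV, where the protein is found. All 94 matched the RefSeq gene table of the GRCm38.p6 build, 92 by the same symbol and 2 by an older symbol (Atp5f1 and Ndufb1-ps). They lie on 19 chromosomes, with 3 on X.

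Complex I takes electrons from NADH and complex II takes them from succinate, complex III passes them from ubiquinol to cytochrome c, complex IV reduces oxygen, and complex V makes ATP from the proton gradient that complexes I, III and IV build. Complex II is encoded by nuclear genes alone, whereas the other complexes also need subunits encoded in mitochondrial DNA, so that both genomes must supply parts. Blood stem cells are known to rest in a quiescent state with low mitochondrial respiration and high use of glycolysis, and respiration rises when they commit to a lineage.

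The data were droplet-based 3' single-cell counts from 14 mice, with 1 library per mouse, of bone marrow sorted for donor-derived (CD45.2+) progenitors, which are Kit+ and free of mature lineage markers. All groups had the same history, per the labels. CD45.2+ marrow was mixed in equal numbers with CD45.1+ marrow and given to aged, lethally irradiated CD45.1+ hosts, a single poly(I:C) injection (an inducer of the interferon response that switches on the Mx1-Cre recombinase) followed 1 month later, and marrow was then moved to a second set of aged, irradiated hosts that were harvested at 20 weeks. The control group was MxCre, with the recombinase alone (3 mice). Dnmt3a had 4 mice, and its combinations with a receptor knockout were Dnmt3a;Tnfr1KO, with 3 mice, and Dnmt3a;Tnfr2KO, with 4. Dnmt3a is a DNA methyltransferase whose loss is common in clonal haematopoiesis, and Tnfrsf1a and Tnfrsf1b encode the type 1 and type 2 tumour necrosis factor receptors (Tnfr1, Tnfr2). The labels give neither the Dnmt3a allele nor the donor, batch or date of each mouse, and mice that share a donor would not be independent.

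Libraries held 62416022 to 162869740 UMIs (unique molecular identifiers, counts of captured RNA molecules), and 66679 cells were kept in all, from 1920 to 7239 per mouse, at median depths of 10730 to 39068 UMIs. Dnmt3a replicate 1 kept the fewest cells, 26.5% of its barcodes, and libraries shared at most 15 cell barcodes. Tnfrsf1b was at 4.77 ± 0.67 CPM (UMIs per 1000000 UMIs; SD, n = 4) in Dnmt3a;Tnfr2KO against 14.9 ± 1.79 (SD, n = 4) in Dnmt3a. Tnfrsf1a was at 36.1 ± 2.58 (SD, n = 3) in the libraries labelled Dnmt3a;Tnfr1KO against 47.1 ± 8.41 (SD, n = 4) in Dnmt3a. Dnmt3a RNA itself was highest in the libraries labelled Dnmt3a, at 33.5 ± 4.26 CPM (SD, n = 4, 29.5 to 38.8) against 25.3 ± 4.87 (SD, n = 3) in MxCre, 20.8 ± 1.77 (SD, n = 3) in Dnmt3a;Tnfr1KO and 22.4 ± 0.794 (SD, n = 4) in Dnmt3a;Tnfr2KO. A 3' tag outside the deleted part checks nothing, and the labels do not give the allele. The direction of every comparison with the Dnmt3a group, or with the libraries labelled Dnmt3a;Tnfr1KO, therefore rests on the label. Haemoglobin RNA (Hba-a1, Hba-a2, Hbb-bs and Hbb-bt, summed after the data had been seen) took 41.1% of the erythroid UMIs of Dnmt3a replicate 4 against 0.173% to 2.83% in the other 13 mice, which lowers every other gene's share in that sum, so the erythroid values that this mouse moves most are also given without it.

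Cells were placed in classes by the UMIs of stated marker genes, by cuts set after the matrices had been seen. The stem-like class (Hlf, Mecom, Procr, Mllt3, Fgd5, Ctnnal1 and Gcnt2) held 4683 cells, 88 to 909 per mouse, and the committed classes were granulocyte (15390 cells), monocyte (3863), erythroid (5425) and megakaryocyte (1726, in 11 mice with enough cells) progenitor-like cells. The classes are ranges cut from a score, and 33306 kept cells stayed unassigned. Of the stem-like cells, 2046 (43.7%) lay between the cut and 1.5 times the cut, and 3780 cells that no other class barred lay between 0.5 times the cut and the cut. The stem marker levels follow from the rule that made the class and are no separate check of its name: Hlf was at 342 CPM in stem-like cells against 7.95 in granulocyte progenitor-like cells, and Mecom at 95.3 against 2.06. Of the 7 markers, Mllt3 was higher in erythroid progenitor-like cells (52.0 against 39.7 CPM in stem-like cells) and Ctnnal1 in megakaryocyte progenitor-like cells (17.7 against 7.03). The median stem-like cell had 6.46 stem marker UMIs per 10000 and 1.45 granulocyte marker UMIs per 10000, and a median of 0 for the markers of each of the other classes. Markers of other cells summed to a median of 271 CPM (151 to 327 over mice) for T, NK and innate lymphoid cells, 36.5 (12.2 to 228) for mature neutrophils and 7.52 (0 to 47.8) for macrophages in stem-like sums. The first of these sums was nearly all Nkg7, at a mean of 264 CPM in stem-like and 1087 in granulocyte progenitor-like cells, while Cd3e, Cd3g, Trbc2, Gzma and Ncr1 were each at 0 to 0.139 CPM in stem-like cells.

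The 94 genes together made up a smaller part of the RNA of stem-like cells than of committed progenitors in all 14 mice. Their share of all UMIs was 2.52% ± 0.158 (SD, n = 14) in stem-like cells, with 2.13% in the lowest and 2.73% in the highest mouse, against 3.16% ± 0.286 (SD, n = 14) in the mean of the committed classes. The share within a mouse was 0.799 ± 0.0466 times (SD, n = 14) that of its committed classes, from 0.747 to 0.940, and the highest ratio was that of Dnmt3a replicate 4. The class means were 3.36% in granulocyte, 3.23% in monocyte, 3.07% in erythroid (3.18% without Dnmt3a replicate 4) and 2.96% in megakaryocyte progenitor-like cells. The ratio of the stem-like share to that of a class was 0.751 ± 0.0331 against granulocyte and 0.780 ± 0.0297 against monocyte progenitor-like cells (SD, n = 14 each, lower in 14 of 14 mice). It was 0.855 ± 0.0498 against megakaryocyte progenitor-like cells (SD, n = 11, lower in 11 of 11). Against erythroid progenitor-like cells it was 0.840 ± 0.167 (SD, n = 14, lower in 13 of 14), and without Dnmt3a replicate 4 it was 0.798 ± 0.0527 (SD, n = 13, 0.713 to 0.936). In that mouse the ratio was 1.39 as counted and 0.821 once haemoglobin UMIs were taken out. The neighbouring class means in this order did not all differ beyond their SDs, so the order among committed classes is a description. The smaller classes were nearer to stem-like cells: the ratio was 1.01 ± 0.0551 against basophil and mast cell progenitor-like cells (SD, n = 11, lower in 6 of 11) and 0.936 ± 0.0813 against B-lymphoid progenitor-like cells (SD, n = 6, lower in 4 of 6).

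**Figure D1:**
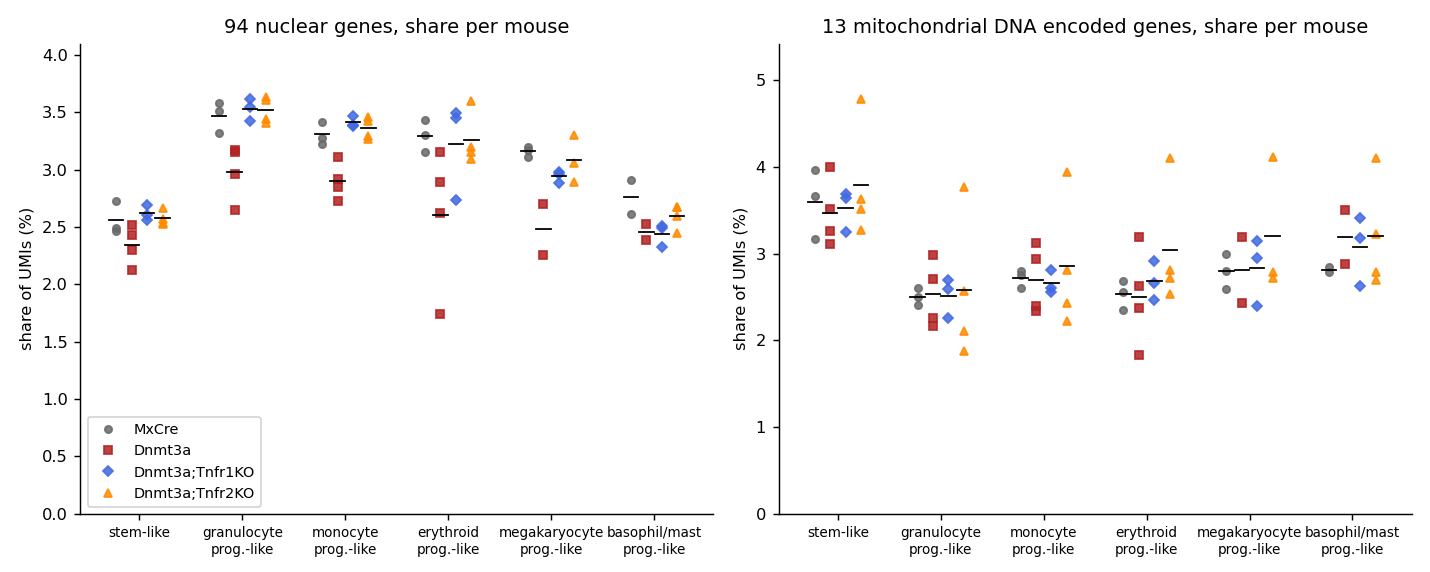
Share of all UMIs (percent, y axis) per mouse and class for the 94 nuclear genes and for the 13 subunits encoded in mitochondrial DNA; each point is 1 mouse, marked by group, and bars are group means. The nuclear genes sit at 2.13% to 2.73% in stem-like cells and the mitochondrial genes at 3.11% to 4.78%, so the mitochondrial set is the larger in stem-like cells of every mouse. In granulocyte progenitor-like cells it is the smaller except in Dnmt3a replicate 1 and Dnmt3a;Tnfr2KO replicate 2.

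The lower share was found in each respiratory complex. The stem-like and committed shares were 0.703% and 0.888% for complex I, 0.241% and 0.312% for complex III, 0.709% and 0.864% for complex IV and 0.792% and 1.01% for complex V. The ratios were 0.795 ± 0.0432 for complex I, 0.775 ± 0.0392 for complex III, 0.823 ± 0.0476 for complex IV and 0.789 ± 0.0524 for complex V (SD, n = 14), each below 1 in 14 of 14 mice. Complex II, with only 4 genes, had 0.0405% and 0.0503% and a ratio of 0.809 ± 0.0737 (SD, n = 14, lower in 13 of 14). The complex I assembly factors had 0.0314% and 0.0381% and a ratio of 0.833 ± 0.106 (SD, n = 14, lower in 13 of 14). The ratios of the complexes overlapped in their ranges over mice, and differences between complexes were not tested. These shares are sums over genes chosen with earlier results known and carry no p-value.

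Gene by gene, 85 of the 90 members that passed the filter on low counts were lower in stem-like cells and 2 were higher (edgeR's quasi-likelihood test on UMIs summed per mouse and class, mouse as a block, adjusted p below 0.05 over all genes tested). Over all 11964 genes tested, 39.1% were lower and 38.9% were higher, so a call alone says little here, and the size is the more telling figure. The median log2 difference was -0.62 over the members tested, against -0.00 over all genes. It was -0.66 for complex I (-0.51 for the core and -0.67 for the accessory subunits), -0.57 for complex I assembly, -0.52 for complex II, -0.68 for complex III, -0.58 for complex IV and -0.63 for complex V. All members of complexes I, II, III and V and all 8 assembly factors were called lower, and the exceptions were all in complex IV. The 4 members that did not pass the filter were Cox7b2, Cox8b, Cox8c and Ndufa4l2. In plain CPM, 52 of all 94 were lower in stem-like cells in 14 of 14 mice and 80 in at least 12. The like share over all genes was not counted, so these 2 counts only describe the members.

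These log2 differences are relative to the other genes, because the fit scales each sum by its TMM factor, which sets the bulk of genes to no change. Without these factors the median of all genes moved to +0.28, 74.7% of all calls were higher rather than 49.9%, and 75 members were lower (19.5% of all genes) and 5 higher. The median of the members was then -0.33, so the set stayed below its committed level on both scales. Leaving out each mouse in turn gave 87 to 88 called members.

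Each committed class showed the same direction on its own. In granulocyte progenitor-like cells 86 members were above stem-like cells and 1 below (44.4% of all genes lower in stem-like cells), in monocyte 87 and 2 (40.2%), in erythroid 84 and 4 (41.0%) and in megakaryocyte 72 and 4 (29.8%). Without Dnmt3a replicate 4 the erythroid counts were 85 and 5. The 4 classes share the stem-like sums, so they are not independent of each other.

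**Figure D2:**
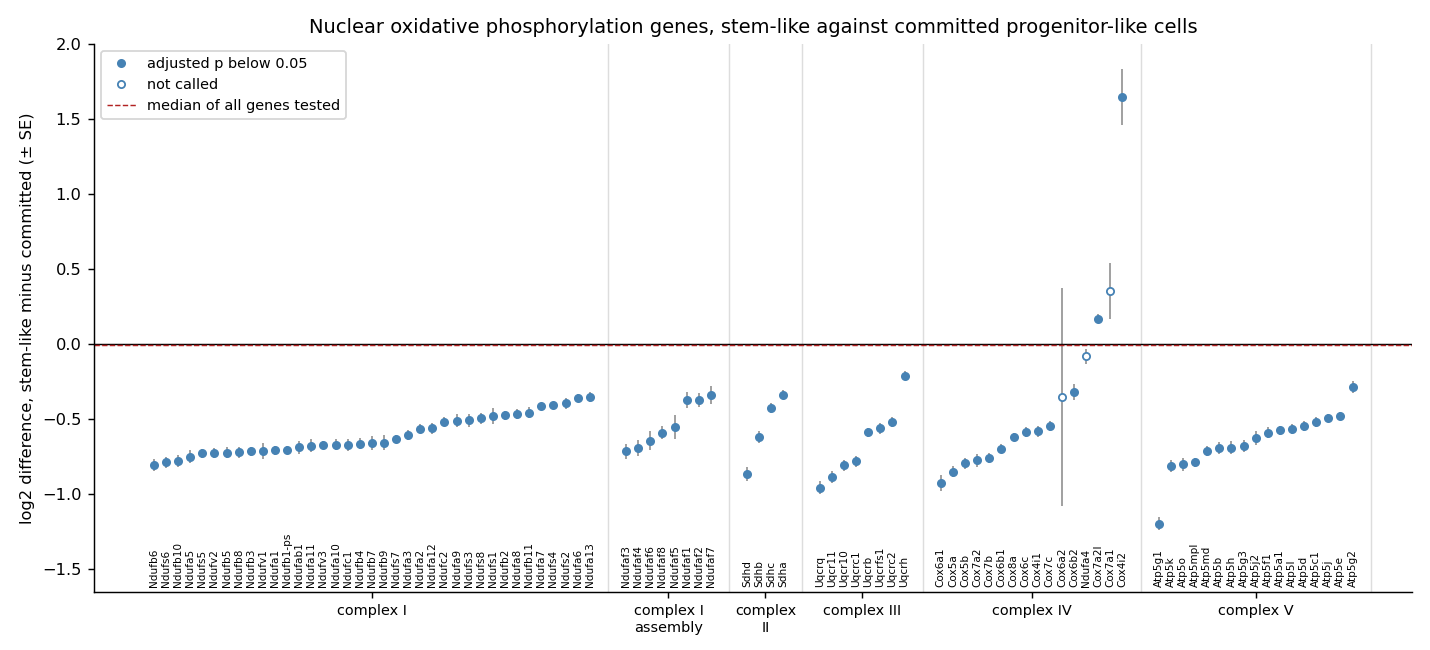
Log2 difference of each member tested, stem-like minus committed (y axis, edgeR fit with TMM factors), by respiratory complex on the x axis; points are genes, vertical lines are standard errors, and the dashed line is the median of all genes. Members of complexes I, II, III and V all lie below the line, and the few points at or above it, Cox4i2, Cox7a1 and Cox7a2l, belong to complex IV.

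Among complex I genes, the largest differences were in accessory subunits. Ndufb6, a subunit of the membrane arm (chr4:40270591-40279421), ran from 90.3 through a median of 103.6 to 125 CPM over mice in stem-like cells and from 129 through 149 to 192 in the committed mean. The ranges did not overlap, and the log2 difference was -0.81 ± 0.041 (SE, adjusted p = 3.95e-25, lower in 14 of 14 mice). Ndufs6 (chr13:73319876-73328482), an accessory subunit of the matrix arm that carries a zinc ion, was at 165 ± 16.0 against 237 ± 22.3 CPM (SD, n = 14), with a log2 difference of -0.79 ± 0.038. Ndufb10 (chr17:24722060-24724423), also in the membrane arm, was at 201 ± 15.9 against 283 ± 19.6 CPM (SD, n = 14) and -0.78 ± 0.037. Ndufb1-ps (chr12:101968096-101975738), the mouse gene of the small membrane subunit NDUFB1 in spite of its pseudogene name, was lower by a like amount, -0.71 ± 0.027. Its level varied far more between mice, from 198 to 584 CPM in stem-like cells, both between and within groups, as given further on. The 7 core subunits, which hold the flavin and the iron-sulfur clusters, were all called lower, with a smaller median than the accessory subunits; the difference between the subunit types was not tested.

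Assembly factors help to build complex I and are not part of it. Ndufaf3 (chr9:108565587-108567436) was at 26.6 ± 3.96 CPM in stem-like cells against 36.6 ± 4.16 (SD, n = 14), with a log2 difference of -0.71 ± 0.051 and lower in 14 of 14 mice. Its partner Ndufaf4 (chr4:24898083-24905001) was at 52.7 ± 9.78 against 70.4 ± 12 CPM (SD, n = 14) and differed by -0.69 ± 0.054. Ndufaf6 (chr4:11048991-11076237) differed by -0.64 ± 0.063 and Ndufaf8 (chr11:120098934-120100424) by -0.59 ± 0.042.

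Complex II links the citric acid cycle to the electron transport chain, and its genes were unequal. Sdhd (chr9:50596340-50603849), a membrane anchor, was at 103 ± 15.4 CPM in stem-like cells against 158 ± 25.4 (SD, n = 14), lower in 14 of 14 mice, and differed by -0.86 ± 0.046. Sdhb (chr4:140961271-140979198), the iron-sulfur subunit, differed by -0.62 ± 0.040, and Sdhc (chr1:171129157-171150640), the other anchor, by -0.42 ± 0.034. Sdha (chr13:74322255-74350240), the flavoprotein that holds the succinate site, was nearly level at 112 ± 10.9 against 116 ± 9.96 CPM (SD, n = 14). Its call (-0.34 ± 0.030) was lost without TMM factors, where the difference was -0.06.

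In complex III the 3 largest called differences were in Uqcrq, Uqcr11 and Uqcr10. Uqcrq (chr11:53427922-53430831), a small subunit next to the quinone sites, ran from 235 through 297 to 329 CPM over mice in stem-like cells and from 395 through 492 to 561 in the committed mean. These ranges did not overlap, and the log2 difference was -0.96 ± 0.044 (SE, adjusted p = 2.76e-27). Uqcr11 (chr10:80402997-80406821) was at 385 ± 64.5 against 597 ± 108 CPM (SD, n = 14), a difference of -0.89 ± 0.038, and Uqcr10 (chr11:4701968-4704344) differed by -0.81 ± 0.037. Both are small single-pass subunits at the rim of the complex. The large core protein Uqcrc1 (-0.78 ± 0.038) and the small subunit Uqcrb (-0.59 ± 0.033) were also called lower, and were named after their values were seen. Uqcrh (chr4:116066965-116075070), the acidic hinge protein that helps cytochrome c to dock, did not follow. It was at 658 ± 64.1 CPM in stem-like cells against 623 ± 56.9 (SD, n = 14) and was higher in plain CPM in 14 of 14 mice. Its sign therefore depends on the scaling: the log2 difference was -0.21 ± 0.029 (adjusted p = 5.23e-09) with TMM factors and +0.08 without them, called in both.

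Most complex IV subunits were lower too. Cox6a1 (chr5:115345652-115348958), the common form of a regulatory subunit, was at 178 ± 18.9 against 278 ± 19.8 CPM (SD, n = 14) and differed by -0.93 ± 0.052. Cox5a (chr9:57517328-57532427), an early partner of the catalytic core, differed by -0.85 ± 0.037, and Cox5b (chr1:36691487-36693388), a subunit that binds zinc, by -0.79 ± 0.037. The other common isoforms were called lower as well: Cox4i1 by -0.58 ± 0.036, Cox6b1 by -0.70 ± 0.031, Cox7a2 by -0.77 ± 0.043 and Cox8a by -0.62 ± 0.027. Ndufa4 (chr6:11900372-11907450) was at 1128 ± 222 CPM in stem-like cells, from 815 to 1535, against 987 ± 79.4 (SD, n = 14). By class it was called lower in stem-like cells against granulocyte (-0.58 ± 0.059) and monocyte (-0.13 ± 0.059) and higher against megakaryocyte progenitor-like cells (+0.26 ± 0.065). Against the committed mean it was not called (-0.08 ± 0.048, adjusted p = 0.111), but was called higher without TMM factors (+0.21) and called lower without Dnmt3a replicate 3, without a limit on mitochondrial UMIs (-0.11) and under a doubled marker threshold (-0.30). Cox7a2l (chr17:83501917-83514333), which ties complexes III and IV into supercomplexes, was higher in stem-like cells in 14 of 14 mice, at 365 ± 32.8 against 266 ± 24.3 CPM (SD, n = 14). Its log2 difference was +0.17 ± 0.030 (SE, adjusted p = 1.4e-06).

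Complex V held the largest difference among the members called lower, in the c ring that turns as protons pass. The 3 Atp5g genes encode the same mature c subunit, and they were unequal. Atp5g1 (chr11:96072793-96075694) ran from 380 through 446 to 501 CPM over mice in stem-like cells and from 576 through 892 to 1017 in the committed mean. No stem-like value reached the lowest committed value, and the log2 difference was -1.20 ± 0.043 (SE, adjusted p = 2.91e-32), a 2.29-fold lower level. Atp5g3 (chr2:73908447-73912464) was at 273 ± 26.3 against 360 ± 40.7 CPM (SD, n = 14) and differed by -0.68 ± 0.041. Atp5g2 (chr15:102662868-102671047) was level in plain CPM, at 875 ± 105 against 876 ± 120 (SD, n = 14, lower in 9 of 14 mice). Its log2 difference of -0.29 ± 0.042 went to -0.00 without TMM factors and was then not called. Atp5k (chr5:108433246-108434399), subunit e at the interface of ATP synthase dimers, differed by -0.81 ± 0.042, and Atp5o (chr16:91925223-91931630), which joins the F1 head to the peripheral stalk, by -0.80 ± 0.042.

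Tissue isoforms of complex IV subunits had class patterns of their own. Cox6b2, known as the testis isoform, was at 223 ± 45.9 CPM in erythroid progenitor-like cells, with 108 in the lowest and 281 in the highest mouse, and at 71.8 ± 13.6 in stem-like cells, with 54.1 to 93.0 (SD, n = 14). The lowest erythroid value was that of Dnmt3a replicate 4, without which the erythroid mean was 232 ± 33.0 (SD, n = 13), and the ranges did not overlap. The log2 difference of stem-like from erythroid progenitor-like cells was -1.96 ± 0.06 (SE, adjusted p = 1.7e-35), lower in 14 of 14 mice. In granulocyte and monocyte progenitor-like cells Cox6b2 was at 52.5 ± 6.48 and 39 ± 7.49 CPM (SD, n = 14). It was above monocyte by +0.58 ± 0.06, and did not pass the test against granulocyte progenitor-like cells (adjusted p = 0.765). Its common counterpart Cox6b1 was at 463 ± 31.2 in stem-like cells and 620 ± 59.8 CPM in the committed mean (SD, n = 14).

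Cox4i2, the isoform of subunit 4 known from lung and from oxygen sensing, was low in every class but not equal. It was at 3.07 ± 1.28 CPM in stem-like cells (SD, n = 14, 0 to 4.92), 0.825 ± 0.247 in granulocyte, 6.93 ± 2.05 in monocyte and 0.0672 ± 0.176 in erythroid progenitor-like cells. The order was monocyte, stem-like, megakaryocyte (1.20 ± 0.529, SD, n = 11), granulocyte and erythroid. The log2 difference of stem-like from granulocyte was +1.45 ± 0.18 and from erythroid +5.29 ± 0.35, while from monocyte it was -1.46 ± 0.17, so its call as higher against the committed mean (+1.65 ± 0.186, adjusted p = 1.13e-11) does not hold for each class. Its common counterpart Cox4i1 was at 744 ± 58.5 CPM in stem-like cells (SD, n = 14).

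Cox6a2 and Cox7a1 are the heart and muscle isoforms. Cox6a2 was at 6.38 ± 2.26 CPM in monocyte and 1.15 ± 0.364 in granulocyte progenitor-like cells, and at 0.357 ± 0.909 in stem-like cells (SD, n = 14), where 9 of 14 mice had none. The stem-like mean was 0.120 ± 0.213 (SD, n = 13) without the labelled Dnmt3a;Tnfr1KO replicate 1, which had 3.43 CPM. The stem-like level differed from monocyte by -5.23 ± 0.33 and from granulocyte by -2.92 ± 0.38. Erythroid progenitor-like cells held 2 Cox6a2 UMIs and megakaryocyte progenitor-like cells 0, and the stem-like level was called higher than both (adjusted p = 0.00345 and 0.0236, edgeR), with fitted sizes that depend on the prior count at such counts. The stem-like class itself held only 13 Cox6a2 UMIs over all mice, so these 2 calls rest on counts near the floor and carry little weight. The difference from the committed mean did not pass the test (adjusted p = 0.669; with DESeq2 it was called lower, -1.10, adjusted p = 0.0378). Cox7a1 was at 1.69 ± 0.706 CPM in stem-like cells and 2.27 ± 0.604 in monocyte progenitor-like cells (SD, n = 14). Its difference from the committed mean, +0.36 ± 0.185 (adjusted p = 0.0751), was called higher when any of MxCre replicates 2 and 3 and Dnmt3a;Tnfr2KO replicates 1 and 4 was left out, and under 5 other settings. Cox8b, Cox8c, Cox7b2 and Ndufa4l2 had 0 to 5 UMIs per named class, summed over all mice, and no comparison was made for them.

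**Figure D3:**
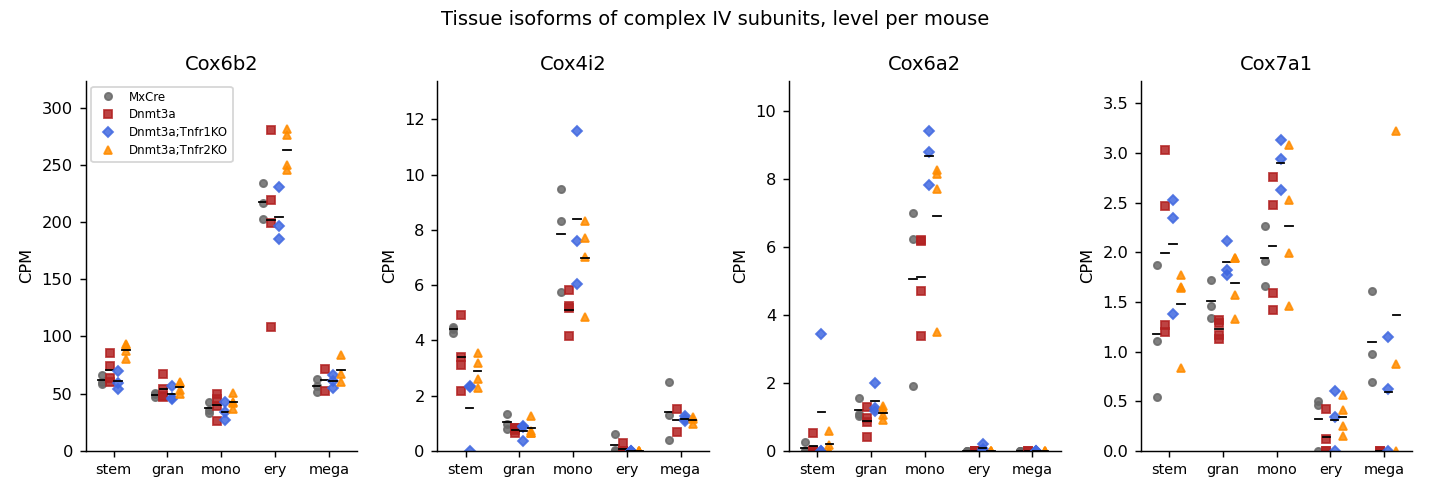
Level in CPM (y axis, linear, a scale of its own in each panel) of Cox6b2, Cox4i2, Cox6a2 and Cox7a1 per mouse and class (stem-like, then granulocyte, monocyte, erythroid and megakaryocyte progenitor-like); points are mice by group and bars are group means. Cox6b2 is highest in erythroid progenitor-like cells (108 to 281 CPM), and Cox4i2 and Cox6a2 are highest in monocyte progenitor-like cells.

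Genes that work beside the complexes were tested in the same fit. Subunits encoded in mitochondrial DNA did not share the lower level: of 13, 6 were called higher and 5 lower in stem-like cells, with the largest differences in mt-Nd6 (+0.59 ± 0.062) and mt-Co1 (+0.25 ± 0.040). The 5 called lower with TMM factors, mt-Nd1, mt-Nd3, mt-Nd4, mt-Nd4l and mt-Atp8, each had a higher stem-like mean in plain CPM. Of these, mt-Nd1 was at 1744 ± 284 against 1618 ± 357 CPM (SD, n = 14, lower in 2 of 14 mice). Their direction thus depends on the scaling. In plain shares the 13 together were 3.60% ± 0.438 of UMIs in stem-like cells against 2.70% ± 0.433 in the committed mean (SD, n = 14), 1.35 ± 0.121 times, higher in 14 of 14 mice. The ratio of mitochondrial to nuclear subunit UMIs was 1.44 ± 0.194 in stem-like cells (SD, n = 14, 1.16 to 1.88). It had means of 0.763 in granulocyte, 0.854 in monocyte, 0.892 in erythroid (0.880 without Dnmt3a replicate 4) and 0.999 in megakaryocyte progenitor-like cells. Dnmt3a;Tnfr2KO replicate 2 had the highest mitochondrial share in stem-like cells, 4.78%.

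The nuclear genes that serve mitochondria otherwise were mostly lower as well with TMM factors, where 39.1% of all genes were called lower. The mitochondrial ribosome makes the mitochondrial subunits, and 78 genes are named for it (Mrpl or Mrps and a number). Of these, 76 were called lower and 0 higher (median log2 difference -0.63), with Mrps18b at -1.06 ± 0.053 and Mrps36 at -0.99 ± 0.069. The list goes by symbol, and whether each gene encodes a part of the ribosome was not checked. In the citric acid cycle and pyruvate dehydrogenase, 16 of 17 were lower and 0 higher (median -0.48), led by fumarate hydratase Fh1 (-0.90 ± 0.041) and malate dehydrogenase Mdh2 (-0.79 ± 0.039). All 5 genes of the list of electron carriers and the ATP synthase inhibitor were lower, with cytochrome c, Cycs, at 156 ± 24.6 against 321 ± 36.2 CPM (SD, n = 14, -1.28 ± 0.050) and the inhibitor Atpif1 at -0.91 ± 0.061. For assembly factors of complexes III, IV and V, 23 of 27 were lower and 1 higher (median -0.38), led by the copper carriers Cox17 (-0.90 ± 0.058) and Sco1 (-0.86 ± 0.070). Some of the calls in these lists do not hold in plain CPM. Etfdh was at 16.7 ± 3.13 against 15.6 ± 3.49 CPM (SD, n = 14), lower in 3 of 14 mice. Genes called lower with a higher stem-like mean in plain CPM also included Mrpl24, Idh3b, Uqcc3, Cox15, Atpaf1 and Tmem70.

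Glycolysis and lactate genes were split, with 8 called higher and 10 lower of 19 tested (median -0.22). Their summed plain share was 0.831 ± 0.0583 times the committed share (SD, n = 14, lower in 14 of 14 mice). By class it was 0.608 ± 0.0397 times that of granulocyte progenitor-like cells (lower in 14 of 14) and above that of erythroid progenitor-like cells in 14 of 14, so the direction depends on the class. The ratio to erythroid was 1.31 ± 0.104 without Dnmt3a replicate 4 (SD, n = 13, 1.19 to 1.58) and 4.15 in that mouse. The 2 genes of largest difference were both higher in stem-like cells: Ldhb, a lactate dehydrogenase subunit, at 35.2 ± 10.3 against 13.8 ± 3.53 CPM (SD, n = 14, +1.92 ± 0.101), and Slc2a3, a glucose transporter, at 31.5 ± 7.46 against 11.5 ± 4.05 (SD, n = 14, +1.66 ± 0.074). Of 13 regulators of mitochondrial biogenesis, 6 were lower and 1 was higher (median -0.10). Over all genes tested 39.1% were lower, so 6 of 13 does not set the list apart. Gabpa, 1 of the 6, was higher in plain CPM, at 26.8 ± 5.38 against 23.9 ± 6.96 (SD, n = 14, lower in 2 of 14 mice). The summed plain share of these regulators went the other way, at 1.21 ± 0.157 times the committed share (SD, n = 14, 1.11 to 1.72 with the highest in Dnmt3a replicate 4, higher in 14 of 14 mice). This too depended on the class: the ratio was above 1 in 14 of 14 mice against granulocyte and against monocyte progenitor-like cells, and 1.01 ± 0.0627 against erythroid without Dnmt3a replicate 4 (SD, n = 13, lower in 6 of 13; 2.60 in that mouse). The higher gene was Gabpb1, a subunit of a factor that activates nuclear mitochondrial genes, at 44.8 ± 8.46 against 23.2 ± 4.71 CPM (SD, n = 14, +0.66 ± 0.048), and the nuclear receptor Esrra was lower by -0.56 ± 0.063.

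Other measures moved with the class too. Ribosomal protein genes took 1.045 ± 0.0831 times their committed share in stem-like cells (SD, n = 14) and a list read as RNA quality (Gm42418, AY036118, Lars2 and Malat1) 1.61 ± 0.197 times, each higher in 14 of 14 mice. The ribosomal ratio ran from 1.004 to 1.328. Its highest value was that of Dnmt3a replicate 4, whose committed mean holds the erythroid sum with 41.1% haemoglobin, and the mean without this mouse is not given here. Against erythroid progenitor-like cells the ribosomal share went the other way, at 0.970 ± 0.0337 times without Dnmt3a replicate 4 (SD, n = 13, lower in 11 of 13) and 2.38 in that mouse. The median depth per cell in each mouse had a median over mice of 14422 UMIs in stem-like cells. In the same way it was 32712 in granulocyte, 24831 in monocyte, 18508 in erythroid and 16492 in megakaryocyte progenitor-like cells. With each cell thinned to 5000 UMIs the share of the 94 genes was 0.580 percentage points lower in stem-like cells, against 0.643 as counted. The part of RNA quality in the class difference was not tested. Of 13 genes of dividing cells, 12 were called lower in stem-like cells with TMM factors, led by Birc5 (-0.83 ± 0.116) and Ccnb1 (-0.64 ± 0.091). In plain shares this list was near its committed level, at 0.967 ± 0.0755 times (SD, n = 14, lower in 9 of 14 mice), and it was above granulocyte progenitor-like cells in 14 of 14 mice, at 1.17 ± 0.102 times. Within the stem-like class, the 1264 cells with 0 UMIs of 6 mitotic genes had 0.840 ± 0.0306 times the nuclear share of the 2143 cells with at least 3 such UMIs per 10000, with the cells in between left out (SD, n = 13, lower in 13 of 13 mice) and 1.11 ± 0.0355 times the mitochondrial share (higher in 13 of 13). The same cells had 1.30 ± 0.112 times the RNA quality list and 1.13 ± 0.0361 times the ribosomal protein share (each higher in 13 of 13). Their median depths per mouse had a median of 10726 against 19072 UMIs, and the part of these measures in the difference was not tested. Among cells at or above that cut, a setting chosen after seeing the data, the share of the 94 genes was 0.586 percentage points lower in stem-like than in committed cells; the part of division in the class difference was not tested.

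Between genotypes, the summed share of the 94 genes was lower in Dnmt3a mice than in MxCre and in both receptor groups in granulocyte progenitor-like cells, where 31 to 37 of 90 members passed the test in each of these comparisons, against 2.61%, 2.41% and 2.43% of all genes in the same direction. Without MxCre replicate 1 the 31 of Dnmt3a against MxCre became 1, while the genes named below kept their direction. In monocyte and erythroid progenitor-like cells 0 members passed it in Dnmt3a against MxCre with edgeR. Further counts, and the low recovery of known changes in these classes, are given below. In granulocyte progenitor-like cells the share was 2.65%, 2.96%, 3.15% and 3.17% in Dnmt3a replicates 1 to 4, and 3.58%, 3.32% and 3.51% in MxCre replicates 1 to 3. It was 3.61%, 3.55% and 3.42% in the libraries labelled Dnmt3a;Tnfr1KO and 3.61%, 3.41%, 3.63% and 3.45% in Dnmt3a;Tnfr2KO. No Dnmt3a value reached the lowest value of the other groups. In stem-like cells the Dnmt3a shares of 2.13%, 2.30%, 2.52% and 2.43% overlapped with the 2.47% to 2.73% of MxCre. The means were 2.34% ± 0.172 in Dnmt3a (SD, n = 4), 2.56% ± 0.145 in MxCre (SD, n = 3), 2.62% ± 0.0663 in the libraries labelled Dnmt3a;Tnfr1KO (SD, n = 3) and 2.58% ± 0.0657 in Dnmt3a;Tnfr2KO (SD, n = 4). The comparisons of Dnmt3a with MxCre and of both receptor groups with Dnmt3a share the same 4 Dnmt3a mice, so the 3 are not independent of each other.

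In granulocyte progenitor-like cells, 31 of 90 members fell in Dnmt3a against MxCre and 0 rose, against 2.61% of all genes that fell. They were 14 genes of complex I, all of them accessory subunits, 1 assembly factor, 5 genes of complex III, 4 of complex IV and 7 of complex V, and 0 of complex II. The median over the members was -0.34 on the log2 scale, against 0.01 over all genes. Atp5k was at 234, 239, 211 and 259 CPM in Dnmt3a replicates 1 to 4 and at 596, 460 and 484 in MxCre. Each Dnmt3a mouse was far below each MxCre mouse, and the log2 difference was -1.31 ± 0.239 (SE, adjusted p = 0.0144). Ndufb1-ps was at 298, 321, 238 and 289 against 678, 528 and 519 CPM (-1.19 ± 0.227, adjusted p = 0.015). Ndufa3, a small subunit of the membrane arm of complex I, was at 143, 140, 125 and 146 against 342, 245 and 232 CPM (-1.17 ± 0.187, adjusted p = 0.00812). Ndufa13, a subunit of complex I that is also known as a cell death regulator, was at 270, 296, 292 and 293 against 388, 398 and 417 CPM (-0.66 ± 0.100, adjusted p = 0.00731). Uqcr11 was at 506, 515, 494 and 518 against 762, 692 and 724 CPM (-0.70 ± 0.128, adjusted p = 0.0144). None of these 5, chosen for the smallest p, overlapped between the groups, as was so for 39 of 90 members and 28.8% of all genes tested. The count rests on few mice: it was 1 without MxCre replicate 1, 7 without replicate 2 and 9 without replicate 3, and of the named genes only Ndufa13 stayed called without MxCre replicate 1. With only these 2 groups in the fit it was 11, and the 5 named genes stayed called. The share of all genes called in these fits is not given here, so the counts cannot be set against it. The sizes moved less. Over the 14 fits that left out 1 mouse, the log2 difference ran from -1.39 to -1.15 for Atp5k and from -1.28 to -1.02 for Ndufb1-ps. It ran from -1.29 to -0.94 for Ndufa3, from -0.69 to -0.58 for Ndufa13 and from -0.74 to -0.63 for Uqcr11.

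The receptor groups were above Dnmt3a in the same cells. In the libraries labelled Dnmt3a;Tnfr1KO, 33 of 90 members rose and 0 fell (2.41% of all genes rose), 14 of complex I, 2 assembly factors, 3 of complex III, 7 of complex IV and 7 of complex V. Atp5k was at 596, 621 and 547 CPM there (+1.53 ± 0.239, adjusted p = 0.00463), and Atp5md, a small subunit of the ATP synthase membrane part, at 506, 496 and 451 against 296, 272, 255 and 276 in Dnmt3a (+1.03 ± 0.176, adjusted p = 0.00676). Uqcr11 was at 731, 796 and 761 CPM (+0.79 ± 0.128) and Uqcr10 at 489, 538 and 514 against 338, 353, 379 and 391 (+0.70 ± 0.116). Ndufv3, an accessory subunit of the matrix arm, was at 232, 213 and 201 against 145, 152, 157 and 160 CPM (+0.70 ± 0.120). These 5, chosen for the smallest p, did not overlap with Dnmt3a, as was so for 42 of 90 members and 27.6% of all genes tested, and they stayed called when any single mouse was left out. The count was 10, 7 and 19 without the labelled replicates 1, 2 and 3, and 15, with these 5 among them, with only the 2 groups in the fit.

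In Dnmt3a;Tnfr2KO, 37 of 90 members rose against Dnmt3a in granulocyte progenitor-like cells and 0 fell (2.43% of all genes rose), 17 of complex I, 2 assembly factors, 4 of complex III, 7 of complex IV and 7 of complex V. Atp5k was at 727, 548, 461 and 254 CPM in replicates 1 to 4 (+1.30 ± 0.226, adjusted p = 0.00669). Replicate 4 thus lay within the Dnmt3a range for this gene, while replicate 1 was above every other mouse. Uqcr11 was at 836, 720, 784 and 561 CPM (+0.73 ± 0.120), Uqcr10 at 535, 477, 528 and 429 (+0.64 ± 0.109), Atp5e, the epsilon subunit of the F1 central stalk, at 1244, 1087, 1073 and 879 against 708, 801, 736 and 774 (+0.71 ± 0.124), and Atp5mpl, another small membrane subunit, at 601, 566, 582 and 492 against 380, 401, 403 and 428 (+0.68 ± 0.119). For these 4 each Dnmt3a;Tnfr2KO mouse was above each Dnmt3a mouse (27 of 90 members and 20.5% of all genes tested did not overlap), with replicate 4 always the lowest of its group. The 5 stayed called when any single mouse was left out, and the count was 19 without Dnmt3a;Tnfr2KO replicate 1. With only the 2 groups in the fit it was 4, and of the named genes Uqcr11 and Atp5mpl stayed called while Atp5k, Uqcr10 and Atp5e lost the call (adjusted p = 0.0516, 0.0539 and 0.0516, edgeR). Between the receptor groups, 0 members were called with edgeR (0.29% of all genes; 0 members and 3.59% of genes at an unadjusted p below 0.05; 0 members with DESeq2; 0 members and 4.34% of genes without overlap), and the smallest p was that of Ndufs1 (+0.15 ± 0.102, adjusted p = 1).

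**Figure D4:**
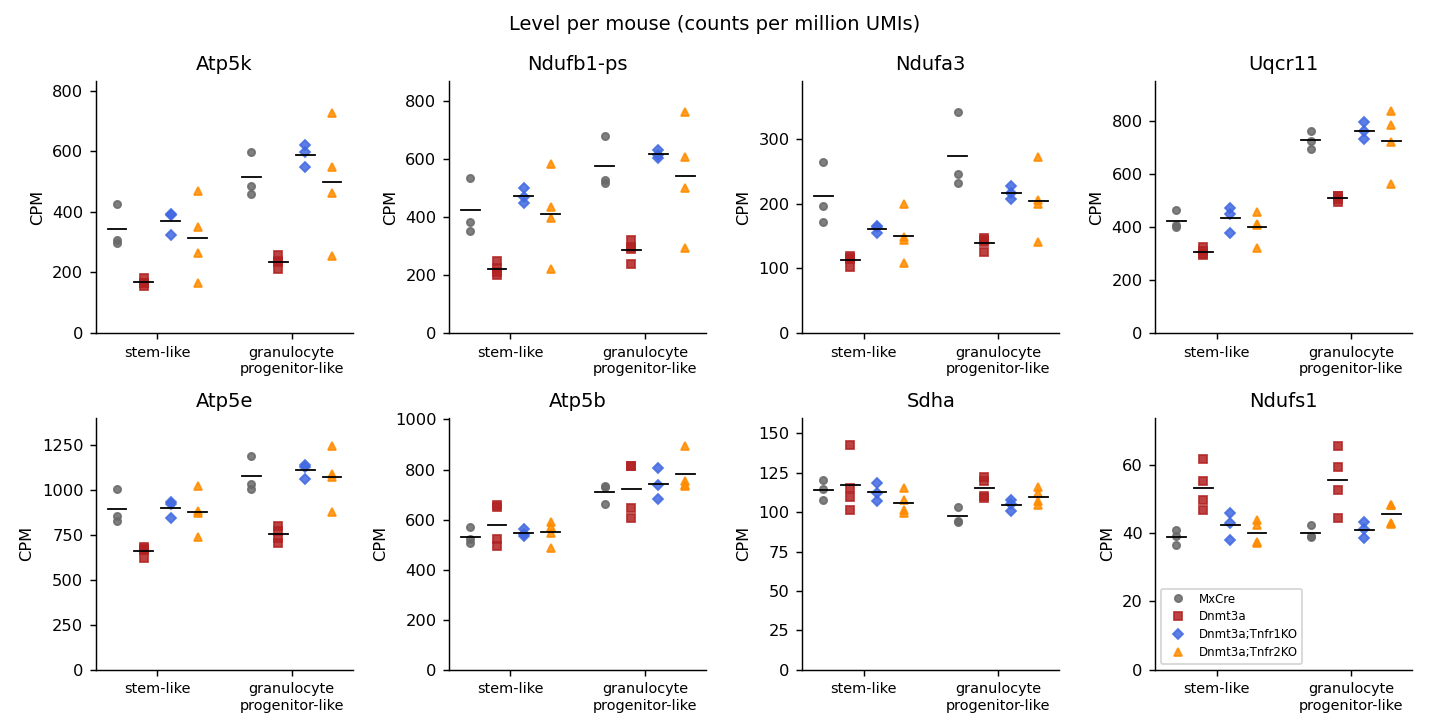
Level in CPM (y axis, linear, from 0) per mouse of Atp5k, Ndufb1-ps, Ndufa3, Uqcr11, Atp5e, Atp5b, Sdha and Ndufs1 in stem-like and granulocyte progenitor-like cells, by group; bars are group means, and Atp5b, Sdha and Ndufs1 were chosen after their values were seen. The Dnmt3a mice are below all MxCre mice for the first 5 genes, and Dnmt3a;Tnfr2KO replicate 4 lies within the Dnmt3a range for Atp5k, Ndufb1-ps and Ndufa3 in both classes and for Uqcr11 in stem-like cells, whereas Atp5b, Sdha and Ndufs1 show no such gap below MxCre.

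Stem-like cells gave fewer calls in the same directions. In Dnmt3a against MxCre 12 of 89 members fell and 0 rose (3.99% of all genes fell), 6 of complex I (Ndufa3, Ndufa13, Ndufb1-ps, Ndufv3, Ndufa5 and Ndufa1), 2 of complex III (Uqcr11 and Uqcr10) and 4 of complex V (Atp5k, Atp5md, Atp5e and Atp5j2). The median over members was -0.19 against -0.00 over all genes. Ndufa3 was at 115, 115, 102 and 120 CPM in Dnmt3a against 265, 196 and 172 in MxCre (-1.0 ± 0.172, adjusted p = 0.00295). Atp5k was at 183, 166, 157 and 164 against 425, 298 and 306 CPM (-1.13 ± 0.235, adjusted p = 0.00839). In both, MxCre replicate 1 was highest and no values overlapped. Ndufb1-ps was at 247, 226, 198 and 210 against 533, 384 and 353 CPM (-1.04 ± 0.220, adjusted p = 0.00945) and Ndufa13 at 236, 289, 285 and 255 against 383, 357 and 354 (-0.54 ± 0.112, adjusted p = 0.00805). These 4 stayed called when any single mouse was left out. Uqcr11, at 324, 308, 295 and 299 against 464, 400 and 406 CPM (-0.56 ± 0.125, adjusted p = 0.0117), lost its call without MxCre replicate 1 or 3. The count was 4 without MxCre replicate 1 and 5 without replicate 3.

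In the libraries labelled Dnmt3a;Tnfr1KO, 6 of 89 members rose against Dnmt3a in stem-like cells and 0 fell (0.602% of all genes rose), and in Dnmt3a;Tnfr2KO 7 rose and 0 fell (0.393%). DESeq2 called 19 (1.14% of all genes) and 20 (0.803%) higher, and the other settings gave 3 to 13 and 0 to 17. Atp5k was at 324, 392 and 389 CPM in the former (+1.26 ± 0.238, adjusted p = 0.016) and at 470, 350, 264 and 164 in the latter (+1.04 ± 0.222, adjusted p = 0.0357). Ndufb1-ps was at 448, 499 and 469 (+1.22 ± 0.222, adjusted p = 0.0142) and at 584, 435, 396 and 222 (+1.03 ± 0.208, adjusted p = 0.0266). As in granulocyte progenitor-like cells, the receptor groups lay above Dnmt3a except for Dnmt3a;Tnfr2KO replicate 4. Atp5md was at 314, 326 and 310 CPM in the libraries labelled Dnmt3a;Tnfr1KO and at 386, 284, 325 and 202 in Dnmt3a;Tnfr2KO, against 206, 194, 180 and 200 in Dnmt3a (+0.82 ± 0.171 and +0.75 ± 0.159). Ndufa1, a small X-linked subunit of complex I, was at 156, 184 and 192 and at 183, 170, 193 and 149 against 128, 140, 106 and 118 CPM (+0.65 ± 0.140 and +0.62 ± 0.129). Uqcr11 rose in the first (377, 448 and 471 CPM, +0.61 ± 0.126) and Atp5mpl in the second (406, 366, 396 and 319 against 274, 270, 287 and 264, +0.57 ± 0.121). None of these calls held throughout: each was lost in 3 to 10 of the 14 fits that left out 1 mouse.

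The counts moved accordingly. For the libraries labelled Dnmt3a;Tnfr1KO in stem-like cells it was 3 without Dnmt3a replicate 1, 0 without Dnmt3a replicate 3, 1 without Dnmt3a replicate 4, and 0 without the labelled replicate 2 or 3. For Dnmt3a;Tnfr2KO it was 0 without Dnmt3a replicate 1, 3 or 4, 17 without Dnmt3a replicate 2, 0 without Dnmt3a;Tnfr2KO replicate 1 or 2, 2 without replicate 3 and 14 without replicate 4, and 0 with only the 2 groups in the fit. It was 3 without MxCre replicate 2 or 3, 2 without the labelled Dnmt3a;Tnfr1KO replicate 1 or 3, and 1 without replicate 2. Between the receptor groups 0 members were called with edgeR (0.122% of all genes; 1 member and 4.76% of genes at an unadjusted p below 0.05; 0 members with DESeq2). That member was Cox6b2, at 80.6, 86.9, 92.4 and 93.0 CPM in Dnmt3a;Tnfr2KO against 70.0, 54.1 and 59.5 in the libraries labelled Dnmt3a;Tnfr1KO (+0.56 ± 0.139, adjusted p = 0.24), without overlap. Whether the Dnmt3a difference in stem-like cells differs from that in committed cells was tested as an interaction. With edgeR 0 of 90 members were called (0.0836% of all genes), and 1 without Dnmt3a replicate 4. At an unadjusted p below 0.05 there were 9 members and 9.12% of genes. The smallest p was that of Ndufa4 (+0.45 ± 0.122, SE, adjusted p = 0.162, edgeR). Most of the members' estimates were positive, a Dnmt3a difference less negative or more positive in stem-like than in committed cells. The like share over all genes is not given here.

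**Figure D5:**
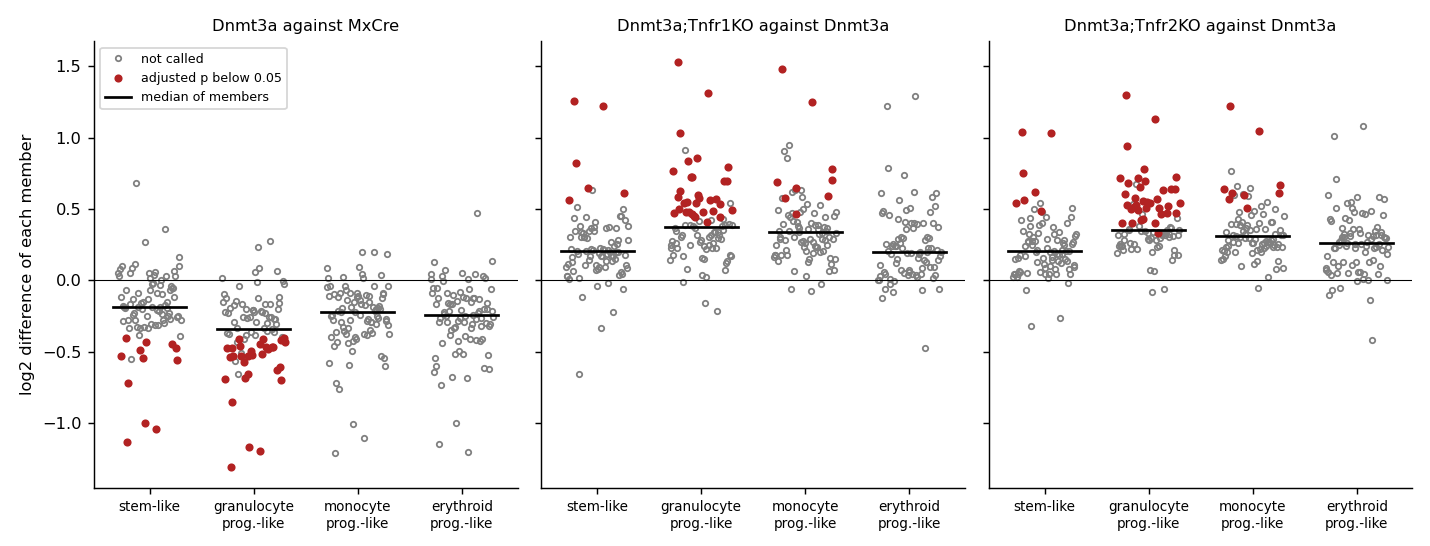
Log2 difference of each member (y axis) for Dnmt3a against MxCre and for each receptor group against Dnmt3a, by class on the x axis; points are genes, filled red where the adjusted p is below 0.05, and bars are the medians of the members tested. The medians are below 0 in the first panel (-0.34 in granulocyte progenitor-like cells) and above 0 in the other panels (0.38 and 0.35), which share the Dnmt3a mice.

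Monocyte progenitor-like cells had 0 members called in Dnmt3a against MxCre with edgeR (0.0% of all genes). At an unadjusted p below 0.05 there were 42 members (13.4% of genes), and DESeq2 called 22 (1.52% of genes). The smallest p was that of Ndufa3, at 139, 144, 122 and 161 CPM in Dnmt3a against 316, 258 and 212 in MxCre (-1.01 ± 0.186, adjusted p = 0.102), without overlap; it was called without Dnmt3a replicate 4 or Dnmt3a;Tnfr2KO replicate 1 or 4. The count was 6 without Dnmt3a replicate 4 and 3 without Dnmt3a;Tnfr2KO replicate 1 or 4.

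Against Dnmt3a, 9 of 90 members rose in the libraries labelled Dnmt3a;Tnfr1KO (0.405% of all genes rose) and 9 of 90 in Dnmt3a;Tnfr2KO (0.387%), and 0 fell in either. DESeq2 called 35 (1.69% of all genes) and 34 (1.66%) higher, and the other settings gave 2 to 10 and 0 to 17. Atp5k was at 564, 618 and 564 CPM and at 699, 522, 441 and 266 against 255, 233, 215 and 232 in Dnmt3a (+1.48 ± 0.238 and +1.22 ± 0.224). Uqcr10 was at 528, 608 and 597 and at 587, 525, 590 and 462 against 409, 402, 418 and 358 CPM (+0.70 ± 0.119 and +0.61 ± 0.111). Both genes were thus higher in each receptor mouse than in each Dnmt3a mouse. Ndufb1-ps was at 613, 619 and 604 and at 736, 568, 489 and 313 against 301, 298, 245 and 311 CPM (+1.25 ± 0.222 and +1.04 ± 0.209). Uqcr11 and Ndufv3 were also named for the first group (+0.78 ± 0.149 and +0.59 ± 0.113), and Atp5mpl and Atp5e for the second (+0.61 ± 0.114 and +0.64 ± 0.126). Each of these calls was lost in 4 to 12 of the 14 fits that left out 1 mouse.

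For the libraries labelled Dnmt3a;Tnfr1KO in monocyte progenitor-like cells the count was 0 without Dnmt3a replicate 3 or any labelled replicate, 2 without MxCre replicate 2 or Dnmt3a replicate 1, 3 without MxCre replicate 3, Dnmt3a replicate 2 or 4, or Dnmt3a;Tnfr2KO replicate 2, and 14 without Dnmt3a;Tnfr2KO replicate 4. For Dnmt3a;Tnfr2KO it was 0 without MxCre replicate 2 or 3, Dnmt3a replicate 3 or 4, any labelled Dnmt3a;Tnfr1KO replicate, or Dnmt3a;Tnfr2KO replicate 1, 2 or 3. It was 3 without MxCre replicate 1 or Dnmt3a replicate 1, and 22 without Dnmt3a;Tnfr2KO replicate 4, and 0 with only the 2 groups in the fit. Between the receptor groups 0 members were called with edgeR (0.09% of all genes; 0 members and 1.71% of genes at an unadjusted p below 0.05; 0 members with DESeq2), with Cox6b2 of smallest p (+0.32 ± 0.216, adjusted p = 1).

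With edgeR, which recovered few known changes in this class (simulated for Dnmt3a against MxCre), erythroid progenitor-like cells had 0 of 87 members called in every comparison. In Dnmt3a against MxCre this was 0.0% of all genes, with 23 members (15.8% of genes) at an unadjusted p below 0.05 and 7 (1.5%) with DESeq2. For the libraries labelled Dnmt3a;Tnfr1KO against Dnmt3a it was 0.0277% of all genes, with 22 members (11.4%) at an unadjusted p below 0.05 and 4 (0.637%) with DESeq2. For Dnmt3a;Tnfr2KO against Dnmt3a it was 0.0831%, with 24 members (15.5%) and 3 (0.628%) in the same order. Between the receptor groups it was 0.0462%, with 1 member (1.26%) at an unadjusted p below 0.05 and 0 with DESeq2, again Cox6b2 at 250, 276, 245 and 281 against 185, 196 and 231 CPM (+0.36 ± 0.158, adjusted p = 1). Ndufb1-ps had the smallest p in the other 3. It was at 346, 366, 281 and 140 CPM in Dnmt3a against 792, 591 and 567 in MxCre (-1.20 ± 0.226, adjusted p = 0.195), 603, 754 and 720 in the libraries labelled Dnmt3a;Tnfr1KO (+1.29 ± 0.227, adjusted p = 0.1) and 824, 659, 520 and 385 in Dnmt3a;Tnfr2KO (+1.08 ± 0.213, adjusted p = 0.135). The Dnmt3a values did not overlap with any other group, and the lowest was that of replicate 4, the mouse with 41.1% haemoglobin. Without it the differences were -1.15, +1.24 and +1.03, and none was called. Without single mice the count of called members was at most 2 (2 in Dnmt3a against MxCre and in Dnmt3a;Tnfr2KO against Dnmt3a without Dnmt3a replicate 2; 1 in Dnmt3a against MxCre without Dnmt3a replicate 4, and 1 in each receptor group against Dnmt3a without Dnmt3a;Tnfr2KO replicate 4).

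Not every member was called between genotypes. Atp5b, the catalytic beta subunit of ATP synthase, was at 607, 648, 814 and 816 CPM in Dnmt3a against 730, 661 and 735 in MxCre in granulocyte progenitor-like cells (-0.15 ± 0.143, adjusted p = 0.566). Sdha was at 123, 110, 109 and 120 against 94, 94.5 and 104 CPM (+0.06 ± 0.085, adjusted p = 0.689), so its plain CPM was above MxCre in each mouse and the scaled difference was not called. Ndufs1, the largest core subunit of complex I, was at 65.7, 44.4, 52.5 and 59.3 against 38.8, 39.2 and 42.3 CPM (+0.28 ± 0.103, adjusted p = 0.112). These 3 were picked after their values were seen. As measured over whole lists in granulocyte progenitor-like cells, 0 of 13 mitochondrial DNA subunits were called in any of the 3 comparisons with Dnmt3a, and 0 of 7 core subunits and 0 of 4 complex II genes. Of all genes, 2.61% were called lower in the first comparison and 2.41% and 2.43% higher in the others. At these shares, lists this short would hold less than 1 gene called in that direction on average. The counts of 0 thus do not set the lists apart from all genes. Whether the core subunits and complex II genes differ from the other members was not tested. The list of mitochondrial ribosome symbols had 5 of 78 genes lower in Dnmt3a against MxCre, and 5 and 7 higher in the receptor groups. The citric acid cycle list had 0, 1 and 0 of 17 called.

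Other measures moved with the Dnmt3a group. Ribosomal protein genes took 27.5%, 34.3%, 31.4% and 29.1% of UMIs in stem-like cells of Dnmt3a replicates 1 to 4 against 33.8% to 35.5% in all other mice, and 27.2%, 32.7%, 29.6% and 28.0% against 31.5% to 34.5% in granulocyte progenitor-like cells. Dnmt3a replicate 2 was within the range of the other groups in both classes. The RNA quality list was at 1.12%, 0.743%, 0.395% and 0.461% of UMIs in granulocyte progenitor-like cells of Dnmt3a, against 0.255% to 0.718% elsewhere. The 3 haemoglobin genes of the red cell list summed to 68.5 to 1389 CPM in stem-like cells of Dnmt3a, a range that held most of the 28.8 to 299.6 CPM of the other mice. The part of these lists in the genotype pattern was not tested. The transcript counts of small subunit genes may also be split with processed pseudogenes of near-identical sequence, which was not tested. TMM scaling bears on these counts too. Without it the median of all genes in granulocyte progenitor-like cells moved from 0.01 to +0.20 in Dnmt3a against MxCre, where calls of higher genes went from 58.9% to 89.6% of all calls and 24 members fell and 2 rose. It moved to -0.22 and -0.20 in the receptor groups, where calls of higher genes went from 49.0% to 9.11% and from 44.9% to 7.01%, with 27 members higher and 1 lower, and 31 higher and 0 lower. These member counts are given without the share of all genes called in each direction in this setting, so they cannot be set against it. The median of all genes moved in the same order to +0.09, -0.14 and -0.13 in stem-like and to +0.16, -0.20 and -0.20 in monocyte progenitor-like cells. In stem-like cells the share of higher calls went from 46.4% to 67.6%, from 73.4% to 31.6% and from 60.0% to 30.7% in the same order, in monocyte progenitor-like cells from 80.4% to 38.2% and from 82.7% to 28.4% in the receptor groups, and in erythroid progenitor-like cells from 66.7% to 55.6% in Dnmt3a;Tnfr2KO against Dnmt3a.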

How the data were processed

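The deposited values are UMI counts per gene and barcode, made with Cell Ranger 6.0.0 and bcl2fastq 2.20.0.422 against mm10 and GRCm38, per the submitters' processing notes. The annotation release is not given in the sources used here. From these counts, barcodes below 1000 UMIs or 500 genes, or with a mitochondrial share of 10% or more, were dropped, and predicted doublets (0.8% per 1000 cells) were removed. Cells entered a class at 4 (stem-like), 50 (granulocyte), 8 (monocyte) or 10 (erythroid, megakaryocyte) marker UMIs per 10000, with at least 3 marker UMIs and no other class's markers above its limit. These cuts were set after the data had been seen. UMIs were summed per mouse and class where at least 20 cells were present.

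Sums were tested with edgeR 4.0.16 (R 4.3.3, limma 3.58.1; TMM, filterByExpr, quasi-likelihood test, Benjamini-Hochberg over all genes tested), with the mouse as a block between classes and all 4 groups in the fit between genotypes. DESeq2 1.42.0 was an alternative, and the scripts were tested on simulated data. Python 3.11.15, numpy 2.4.6, scipy 1.17.1, pandas 2.3.3, scikit-learn 1.9.0 and matplotlib 3.10.9 did the rest. Levels are CPM without TMM factors, and log2 differences are relative to the TMM scaling. Counts of 3' tags are per molecule and were not divided by transcript length. The members and lists were chosen with earlier results of these data known. Named genes were, per complex and for the complex I assembly factors, the most abundant member in stem-like cells and up to 3 called members of largest difference, the c subunit genes, the tissue isoforms with their common forms, and, per genotype comparison, up to 5 called members of smallest p, or 1 where none was called. For each other list the 2 called genes of largest difference were named. P-values between genotypes rest on the spread between mice, which may share a donor. Those between classes and for the interaction, with the mouse as a block, rest on how class differences vary over mice. Intervals cover counting error only. The labels do not say what samples of the same replicate number share. Their deviations correlated above 0.1 in 0 of 19 pairs in stem-like, 5 of 19 in granulocyte, 5 of 19 in monocyte and 8 of 19 in erythroid progenitor-like cells. The pair of Dnmt3a replicate 4 and Dnmt3a;Tnfr2KO replicate 4 had the highest value in each class, 0.0847, 0.199, 0.308 and 0.280 in the same order. Pairs of different number were not set beside them, so these values cannot show whether such samples share an origin. Sequences of the members were not used here.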

Additional observations from a re-analysis of the deposited data

Results flagged for a closer look

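The summed level of each complex was tested for a mouse far from the others of its group (Dixon's test at its 95% critical value), in 64 sets of 4 values. The sets reuse the same Dnmt3a and Dnmt3a;Tnfr2KO mice and are not independent. Chance alone gives such a mouse in about 1 of 20 sets, so a few among 64 are what chance gives. In Dnmt3a replicate 4 the 8 complex I assembly factors summed to 290.2 CPM in monocyte progenitor-like cells, against 361.9 to 371.1 CPM in the other Dnmt3a mice. In erythroid progenitor-like cells of the same mouse they summed to 125.9 CPM against 391.8 to 424.9 CPM, in a sum of which 41.1% was haemoglobin RNA. In Dnmt3a;Tnfr2KO replicate 1 the complex III genes summed to 2569 CPM in stem-like cells against 2438 to 2453 CPM in the others of that group. In Dnmt3a;Tnfr2KO replicate 4 they summed to 3722 CPM in erythroid progenitor-like cells against 3263 to 3298 CPM.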

How the results depend on the processing

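Between stem-like and committed cells, 80 to 89 members were called under every setting, and 87 to 88 with a mouse left out. Uqcrh reversed without TMM factors (+0.079). The shares differed by -0.681 to -0.626 percentage points for all members with a mouse left out (complex I -0.195 to -0.180, assembly -0.00756 to -0.00647, II -0.0106 to -0.00915, III -0.0742 to -0.0691, IV -0.164 to -0.150, V -0.230 to -0.211), and with doubled marker thresholds by -0.87 (I -0.243, IV -0.226, V -0.292). For the genotype comparisons, in the order Dnmt3a against MxCre, then the Tnfr1KO and Tnfr2KO groups against Dnmt3a, leaving out a mouse gave 4 to 15, 0 to 8 and 0 to 17 members in stem-like, 1 to 32, 7 to 35 and 19 to 42 in granulocyte, 0 to 6, 0 to 14 and 0 to 22 in monocyte and 0 to 2, 0 to 1 and 0 to 2 in erythroid cells, 0 to 1 for the interaction, and 0 between the receptor groups. Doubled marker thresholds gave 6, 3 and 3 in stem-like and, for the receptor groups, 2 and 1 in monocyte cells. Thinning gave 3 for Tnfr1KO in stem-like and 2 and 0 in monocyte cells. DESeq2 gave 19 and 20 for the receptor groups in stem-like, 22, 35 and 34 in monocyte and 7, 4 and 3 in erythroid cells. No low-count filter gave 13 and 17 for the receptor groups and 1 (Cox6b2) between them in stem-like cells, and 3 for Dnmt3a against MxCre in monocyte cells. No TMM factors gave 1 for Tnfr2KO in stem-like and 3 and 5 for the receptor groups in monocyte cells. Only the 2 groups in the fit gave 0 for Tnfr2KO in stem-like, 11, 15 and 4 in granulocyte, and 2 and 0 for Dnmt3a against MxCre and Tnfr2KO in monocyte cells. The replicate block gave 3 for Tnfr1KO in stem-like, 18 and 16 for the first comparisons in granulocyte, and 3, 5 and 17 in monocyte cells; the numbers share no stated origin, with median correlations of same-numbered mice from -0.00964 to 0.0598. The cause of these shifts was not tested. Most of these counts are given without the share of all genes called in the same fit, so they cannot be set against it. Of the other values between genotypes, 522 kept direction and call under settings other than a left-out mouse, 47 lost the call and 7 gained it. Settings without TMM factors and with mitotic cells alone, and the mice left out of single levels and erythroid ratios, were chosen after seeing the data. At this depth 4 members had too few UMIs to be tested, and the smallest stem-like sum held 88 cells.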

Other observations

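Cox6a2, the heart and muscle isoform of a complex IV subunit, had its highest level in the smallest class. The 37 dendritic progenitor-like cells, too few per mouse for a sum and 15 of them from Dnmt3a replicate 4, held 255 Cox6a2 UMIs of 346862, or 735 CPM (648 to 831, exact Poisson interval for counting error only, pooled over mice). The pooled level was 6.86 CPM in monocyte, 1.15 in granulocyte and 1.52 in B-lymphoid progenitor-like cells and 0.188 in stem-like cells, and its common counterpart Cox6a1 was at 187 CPM in the dendritic progenitor-like cells against 272 in monocyte progenitor-like cells. More of its UMIs lay in other cells, with 1809 in cells of no class, 682 in monocyte and 537 in granulocyte progenitor-like cells. With 1 pooled value per class there is no test across mice.

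Cox7a1, known from the same tissues, was at 5.10 CPM in pooled B-lymphoid progenitor-like cells (84 UMIs in 1705 cells, 4.06 to 6.31, exact Poisson interval; 1304 of these cells came from Dnmt3a replicate 4) against 1.55 in stem-like and 0.364 in erythroid progenitor-like cells. Cox6b2 had its second highest mean in basophil and mast cell progenitor-like cells, 110 ± 19.6 CPM (SD, n = 11).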
